A study of Mus musculus with 36 samples.

Results

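The genes described here are the 34 members of a list of ATF4 targets and partners: transcription factors of the amino acid response, the amino acid enzymes, transporters and cytosolic aminoacyl-tRNA synthetases that the response is known to induce, and several of its feedback and stress genes. They were chosen by symbol, and all 34 were found, each as a single entry, among the 50509 gene symbols of both expression tables. RNA was taken from mouse embryonic fibroblasts of stage E12.5-13.5, from a strain in which the Myh6 promoter, active in cardiac muscle, drives mCherry. The groups were GHMT cells, which carried the transduced cardiac factors Gata4, Hand2, Mef2c and Tbx5, and uninfected fibroblasts. Each kind of cell was treated with 1% DMSO or left untreated and was sampled at days 2, 7 and 21, which gave 12 groups of 3 libraries, and all of them were kept in StemPro34 SFM medium with FGF2, FGF10 and VEGF. The labels do not say whether libraries of a group came from separate cultures, so p-values measure only the spread between these libraries, and what share of the GHMT cells carried the factors is not given.

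When a cell runs short of an amino acid, uncharged tRNA activates a kinase that phosphorylates the translation initiation factor eIF2alpha. Translation then slows in general while the mRNA of Atf4 is read more, and ATF4 protein, paired with C/EBP-family partners, switches on genes for amino acid synthesis, uptake and charging onto tRNA. Because ATF4 is controlled largely at translation, its mRNA level does not report its activity. Stress of the endoplasmic reticulum, heme shortage and viral RNA feed into the same step, and the tribbles protein Trib3 and other targets act back on the pathway.

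The site through which ATF4 and its partners act is the C/EBP-ATF response element, whose core is searched here as TGATGNAA, with N any base, on both strands. Of the members, 30 had a promoter in the RefSeq table (GRCm38.p6), which runs from 250 bases before to 50 bases after the start of each gene. Slc7a3, Slc7a5, Nars and Wars had none. The core stood in 13 of the 30 promoters (43.3%), against 4.51% of the 27025 genes of that table, and its form TGATGCAA stood in 10 of the 30 (33.3%), against 1.03%. It was found in 5 of 7 synthetase promoters, in 0 of 9 promoters of other cytosolic synthetases and their scaffold proteins, and in 0 of 14 of mitochondrial synthetases. A match is a description of the letters and not a bound site, and most of the members were listed because they are known targets. The windows below belong to 10 of the 11 members with a match that passed a test in at least 1 comparison of this study. Capitals mark the core, each window is written on the strand on which the core reads TGATGNAA, and the coordinates are those of the RefSeq table on GRCm38.p6.

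Atf3, chr1:191183425-191183454, plus strand: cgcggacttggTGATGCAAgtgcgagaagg
Nupr1, chr7:126625562-126625591, plus strand: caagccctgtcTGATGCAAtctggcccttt
Trib3, chr2:152344028-152344057, plus strand: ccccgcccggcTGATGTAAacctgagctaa
Fgf21, chr7:45615611-45615640, plus strand: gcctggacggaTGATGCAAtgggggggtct
Asns, chr6:7693214-7693243, minus strand: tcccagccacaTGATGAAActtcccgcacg
Pycr1, chr11:120643833-120643862, minus strand: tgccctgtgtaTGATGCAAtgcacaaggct
Got1, chr19:43524689-43524718, plus strand: ggaggcttgtaTGATGCAAccaatgcaatg
Gars, chr6:55037960-55037989, minus strand: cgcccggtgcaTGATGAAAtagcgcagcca
Iars, chr13:49682126-49682155, minus strand: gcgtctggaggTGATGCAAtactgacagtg
Tars, chr15:11399655-11399684, plus strand: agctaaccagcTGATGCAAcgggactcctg

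Gars and Got1 are shown with their whole upstream stretch, because Got1 was the member called with DMSO in GHMT cells, where it was higher, and Gars was one of those called lower in uninfected cells, with Fgf21 and Eprs. Both are written 5′ to 3′ on the strand of the gene, so that the core appears as its reverse complement, in capitals. The core of Gars lies 30 bases before the start of the gene and that of Got1 102 bases before it.

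Gars, chr6:55037751-55038000, plus strand: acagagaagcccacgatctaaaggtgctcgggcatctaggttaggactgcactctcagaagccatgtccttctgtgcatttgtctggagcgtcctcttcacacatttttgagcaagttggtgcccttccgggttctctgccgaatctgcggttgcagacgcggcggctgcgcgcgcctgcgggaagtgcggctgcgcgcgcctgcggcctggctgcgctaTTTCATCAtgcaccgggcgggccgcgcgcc
Got1, chr19:43524606-43524855, minus strand: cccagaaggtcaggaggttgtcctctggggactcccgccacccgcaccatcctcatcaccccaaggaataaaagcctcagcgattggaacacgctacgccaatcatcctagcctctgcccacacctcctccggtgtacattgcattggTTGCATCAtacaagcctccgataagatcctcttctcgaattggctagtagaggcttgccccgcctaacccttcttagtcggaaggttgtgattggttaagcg

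Levels are given in TPM, which scales reads for transcript length and for the total of each library. The members together held 0.150 to 0.279% of the TPM of a library. The depth of the libraries is unknown, and with it the precision of low levels. Differences between groups were fitted with limma on the log2(TPM + 1) scale, and genes under 1 TPM in all but at most 2 libraries of their table were left out. Calls used a threshold of 0.05 on p-values adjusted by Benjamini-Hochberg over every gene kept. That left 19979 genes, with all 34 members, in the uninfected table, and 20618 genes, with 33 members, in the GHMT table. The member left out there was Fgf21, which lay between 0 and 0.823 TPM and was listed at 0 in 1 library. An earlier analysis of the same tables set 3 libraries apart. Over all genes, their median correlations to their own group were the lowest of each group, at 0.942 (uninfected untreated day 21, replicate 1), 0.931 (GHMT DMSO day 7, replicate 1) and 0.913 (GHMT DMSO day 21, replicate 3). All libraries lay between 0.913 and 0.970, and the other GHMT DMSO libraries of days 7 and 21 between 0.919 and 0.942, so the measure does not separate the 3 from these. The member calls for DMSO and for time that were lost without the 3 are named below.

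In uninfected fibroblasts treated with DMSO, most members lay below the untreated level at every day, but few passed the test over all genes. At day 2 the log2 difference was below 0 for 29 of 34 members and their median was -0.31, against 41.9% below 0 and a median of 0.05 over all genes. At day 7 it was below 0 for 32 of 34, with a median of -0.34, against 49.9% and 0.00 over all genes. At day 21 it was below 0 for 31 of 34, with a median of -0.37, against 48.5% and 0.01 over all genes. Members called were 0 of 34 at day 2, 1 of 34 at day 7 (Gars) and 2 of 34 at day 21 (Fgf21 and Eprs), all lower in DMSO. Of all genes, 0.285% were called at day 2, 1.69% at day 7 and 2.36% at day 21, and 0.105%, 1.04% and 1.64% were called lower. At an unadjusted p under 0.05 the member counts were 13, 16 and 16 of 34, against 11.4%, 15.7% and 13.6% of all genes. Every DMSO library lay below every untreated library for 15 members at day 2, 21 at day 7 and 12 at day 21, against 5.36%, 14.2% and 7.15% of all genes, and for 0 members above, against 11.1%, 14.5% and 7.49%. The median of the members stayed between -0.47 and -0.21 at all 3 days when any 1 library was left out, and both rescalings tried left all of these medians below 0. The counts of calls were less steady, for members and for all genes. After median ratio scaling 1, 4 and 6 members were called, and 41, 386 and 663 genes, against 57, 337 and 472 before. Rescaling to protein-coding genes gave 4, 4 and 7 members, and 194, 945 and 1024 protein-coding genes. In bulk RNA, fewer cells of a type and less RNA per cell cannot be told apart.

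**Figure D1:**
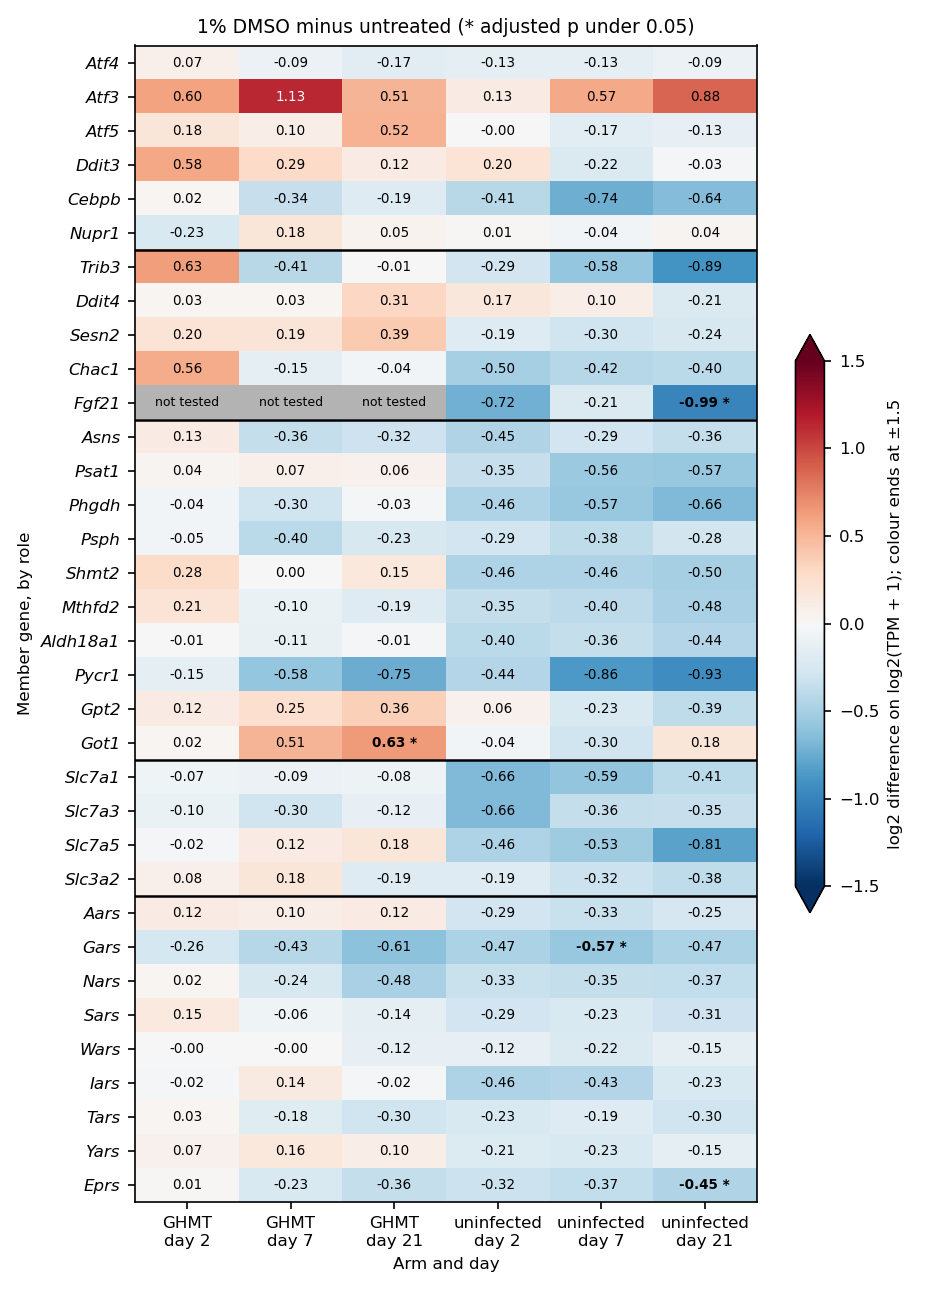
Log2 difference of DMSO against untreated cells on the log2(TPM + 1) scale for each member (rows, by role) in GHMT and uninfected cells at days 2, 7 and 21 (columns), with called members marked. In uninfected cells 29, 32 and 31 of 34 members lay below 0, with Gars called at day 7 and Fgf21 and Eprs at day 21, while in GHMT cells Got1 alone was called, at day 21.

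The cytosolic aminoacyl-tRNA synthetases, which load amino acids onto their tRNAs, had all 9 listed members below 0 at each of the 3 days in uninfected cells. Their median log2 differences were -0.29 at day 2, -0.33 at day 7 and -0.30 at day 21, and the count of 9 of 9 was the same after both rescalings. Gars, the glycyl-tRNA synthetase, had 64.9, 80.2 and 74.3 TPM in the DMSO libraries of day 7, against 97.4, 113 and 117 TPM in the untreated ones. The highest DMSO library was below the lowest untreated one, and Gars fell by 0.57 ± 0.12 on the log2 scale (SE, 3 libraries a group, limma, adjusted p = 0.0328). At day 2 Gars had 78.7, 94.95 and 99.1 TPM with DMSO, against 123, 119 and 136 TPM without, and at day 21 75.8, 58.4 and 57.9 TPM, against 93.2, 90.7 and 82.0 TPM. The groups were apart at these days too, but with limma the adjusted p was 0.137 at day 2 and 0.0639 at day 21. As a ratio of means, Gars was 27.7% lower at day 2, 32.97% lower at day 7 and 27.7% lower at day 21.

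Eprs encodes the bifunctional glutamyl- and prolyl-tRNA synthetase. It had 79.5, 66.9 and 65.5 TPM in DMSO libraries of day 21, against 101, 99.2 and 89.6 TPM in untreated ones, which do not overlap. The difference of -0.45 ± 0.10 was called (limma, adjusted p = 0.026), while -0.32 at day 2 (adjusted p = 0.208) and -0.37 at day 7 (adjusted p = 0.0768) were not. At day 7 Eprs had 99.8, 106 and 109 TPM with DMSO and 129, 136 and 141 TPM without, again with no overlap. Nars, for asparagine, had 60.7, 70.0 and 73.6 TPM with DMSO at day 7 and 81.7, 88.4 and 91.3 TPM without, and its groups were apart at all 3 days with differences of -0.33, -0.35 and -0.37. Aars, Sars and Tars, for alanine, serine and threonine, had differences of -0.33 to -0.19, Iars, for isoleucine, of -0.46 to -0.23, and Wars and Yars, for tryptophan and tyrosine, of -0.23 to -0.12. None of these was called at any day.

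Neither call held throughout when single libraries were left out in turn, and the calls over all genes moved too. At day 7 the 337 genes called became 81 to 155, and at day 21 the 472 became 224 to 721. Gars at day 7 missed the threshold without each of the 6 libraries in turn, with adjusted p up to 0.128. Eprs at day 21 kept it only without untreated replicate 3 or without DMSO replicate 1, and otherwise reached 0.113. Without the 3 libraries set apart Gars kept its call at day 7, joined by Phgdh and Pycr1, while at day 21 Eprs (adjusted p = 0.0558) and Fgf21 (adjusted p = 0.0889) lost theirs and Phgdh and Trib3 were called instead. DMSO replicate 1 of day 21 held the highest value of its group for 27 of 34 members (79.4%), against 55.4% of all genes, and lay at a median of 0.34 above the mean of the other replicates on the log2 scale. Without it 6 members were called at day 21, Eprs, Gars, Aldh18a1, Pycr1, Shmt2 and Mthfd2. Without untreated replicate 2 or DMSO replicate 2 or 3 none was called by limma.

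**Figure D2:**
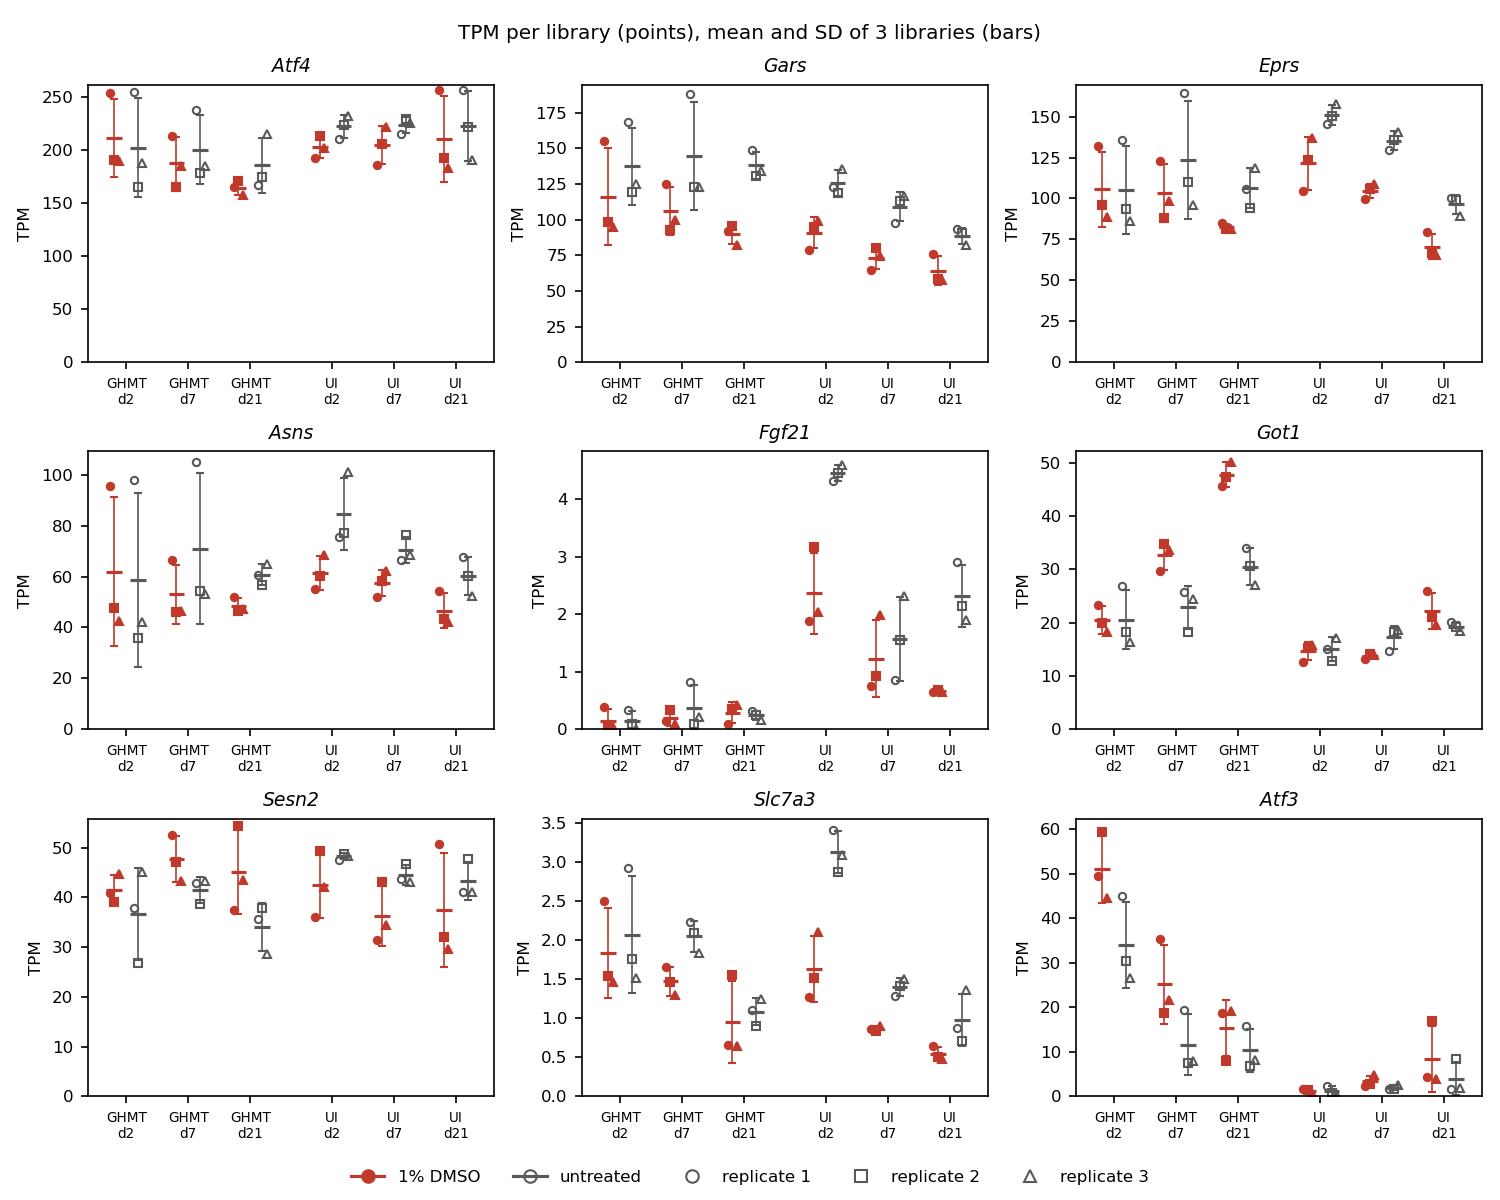
TPM of single libraries (points, with a marker for each replicate number) with the mean and SD of 3 libraries (bars) for chosen members, by kind of cell and day, DMSO beside untreated. The Gars points of DMSO libraries lie below the untreated ones at all 3 days in uninfected cells, and the Got1 points of GHMT cells lie above them at days 7 and 21.

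The enzymes of amino acid synthesis and folate-dependent carbon transfer were below 0 for 9, 10 and 9 of 10 members at days 2, 7 and 21, with median log2 differences of -0.38, -0.39 and -0.46, with 0 called by limma and 3, 5 and 5 at an unadjusted p under 0.05. Phgdh, the entry enzyme of serine synthesis, had 55.0, 54.4 and 53.8 TPM with DMSO at day 21, against 65.0, 103 and 96.9 TPM without, with no overlap and a difference of -0.66 ± 0.17 (limma, adjusted p = 0.0527). Pycr1, which completes proline synthesis in mitochondria, had 8.62, 5.43 and 4.72 TPM with DMSO at day 21 and 18.1, 12.4 and 8.68 TPM without, a difference of -0.93 ± 0.24 (adjusted p = 0.0621). Both enzymes sat just above the threshold. The other serine enzymes, Psat1 and Psph, had differences of -0.57 to -0.28 over the 3 days. Shmt2 and Mthfd2, which move carbon units from serine into mitochondrial folate, had differences of -0.50 to -0.35. Asns, the asparagine synthetase and a standard readout of ATF4 activity, had 55.1, 60.4 and 68.4 TPM with DMSO at day 2 and 75.4, 77.3 and 101 TPM without (difference -0.45, adjusted p = 0.205), and differences of -0.29 and -0.36 at days 7 and 21. Aldh18a1, an early step of proline synthesis, had differences of -0.44 to -0.36. The transaminases Gpt2 and Got1 had mixed differences, 0.06, -0.23 and -0.39 for Gpt2 and -0.04, -0.30 and 0.18 for Got1 at days 2, 7 and 21.

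All 4 amino acid transporters were below 0 at each day, with median log2 differences of -0.56, -0.44 and -0.39 at days 2, 7 and 21, with 0 called by limma and 2, 4 and 3 at an unadjusted p under 0.05. Slc7a3, a cationic amino acid transporter, had 1.27, 1.51 and 2.10 TPM with DMSO at day 2, against 3.41, 2.88 and 3.09 TPM without. These low values did not overlap, and the difference of -0.66 ± 0.14 on a scale that understates changes of low genes had an adjusted p of 0.0744 (limma). Slc7a1, which carries arginine and lysine, had 14.3, 16.9 and 22.5 TPM with DMSO at day 2 and 26.4, 22.9 and 37.7 TPM without, a difference of -0.66 (adjusted p = 0.26). Slc7a5 and Slc3a2, the light and heavy chains of the LAT1 exchanger for large neutral amino acids, had differences of -0.81 to -0.46 and of -0.38 to -0.19 over the 3 days.

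Among feedback and stress effectors, 4, 4 and 5 of 5 members were below 0 at days 2, 7 and 21. Fgf21, a hormone secreted under metabolic stress, had 0.653, 0.677 and 0.657 TPM with DMSO at day 21, against 2.92, 2.15 and 1.90 TPM without. The DMSO libraries were nearly alike and all lower, and Fgf21 fell by 0.99 ± 0.23 (limma, adjusted p = 0.0355), with a ratio of means 71.5% lower. At day 2 it had 1.88, 3.17 and 2.05 TPM with DMSO and 4.33, 4.46 and 4.598 TPM without, a difference of -0.72 (adjusted p = 0.231). At day 7 the groups overlapped, with 0.756, 0.926 and 1.99 TPM with DMSO and 0.855, 1.55 and 2.32 TPM without. With values this low, the day 21 call was lost without each of the 6 libraries in turn (adjusted p up to 0.107), with a pseudocount of 5, with no filter on low values, in a fit on the groups alone and without the 3 libraries set apart. Trib3, the pseudokinase that feeds back on ATF4, had 9.12, 10.3 and 8.50 TPM with DMSO at day 21 and 12.8, 25.3 and 18.3 TPM without (-0.89, adjusted p = 0.118). Chac1, which degrades glutathione, and Sesn2, a leucine sensor that restrains mTORC1, had differences of -0.50 to -0.40 and of -0.30 to -0.19. Ddit4, another brake on mTORC1, was above 0 at days 2 and 7 and below it at day 21, with differences of 0.17, 0.10 and -0.21.

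Among the transcription factors 3, 5 and 4 of 6 were below 0 and the medians were 0.01, -0.15 and -0.06 at days 2, 7 and 21, with 0 called by limma and 0 at an unadjusted p under 0.05. The day 2 median was -0.06 after median ratio scaling and the day 21 median 0.02 after protein-coding rescaling, so the sign changes with the scaling at those days. Atf4 itself had 193, 214 and 202 TPM with DMSO at day 2 and 211, 224 and 233 TPM without (difference -0.13, adjusted p = 0.788). The lowest untreated library was below the highest DMSO library. At day 7 Atf4 had 186, 206 and 222 TPM with DMSO and 216, 230 and 225 TPM without, and at day 21 257, 192 and 183 TPM with DMSO and 256, 222 and 191 TPM without. Replicate 1 was the highest of both groups at day 21. Atf5, a related factor under the same translational control, ranged from 108 to 159 TPM over the 18 uninfected libraries. Ddit3 (CHOP), a factor of prolonged stress, had differences of 0.20, -0.22 and -0.03. Nupr1, a small stress-induced chromatin protein, was the highest member in uninfected cells at 249 TPM over all 18 libraries, with differences of 0.01, -0.04 and 0.04. Cebpb, a partner of ATF4, had differences of -0.41, -0.74 and -0.64 amid a wide spread (9.46 to 33.5 TPM with DMSO and 18.1 to 56.3 TPM without at day 21). Atf3, an induced repressor, was low, between 0.424 and 16.9 TPM.

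Markers of other cells and of growth also differed in uninfected cells, and their part in the member result was not tested. All 25 cell cycle genes lay above 0 with DMSO at days 2 and 7 and 24 of 25 at day 21, with summed levels of 219 to 401 TPM with DMSO and 148 to 233 TPM without at day 2, 143 to 241 TPM and 89.5 to 98.9 TPM at day 7, and 115 to 207 TPM and 74.2 to 182 TPM at day 21. Fibroblast markers were below 0 for 11, 12 and 12 of 12, with sums of 9371 to 11310 TPM with DMSO and 14490 to 15580 TPM without at day 21. Macrophage and leukocyte markers were above 0 for 10 of 15 tested at day 2 and below 0 for 15 of 15 at days 7 and 21, with sums of 24.2 to 60.0 TPM with DMSO and 58.3 to 124 TPM without at day 21. No cell cycle, fibroblast or macrophage marker was at 0 in all libraries of an uninfected group. Cardiomyocyte markers together stayed between 6.88 and 13.7 TPM in uninfected cells, with Myh6 listed at 0 in all untreated libraries of day 2, Actc1 in all libraries of day 21 with and without DMSO, and Myl7 in all untreated ones of day 21.

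Genes of neighbouring pathways were set beside the members with the same fit. Of 30 other ATF4 targets tested, 21, 24 and 23 were below 0 at days 2, 7 and 21, with medians of -0.19, -0.25 and -0.26. Cth, which makes cysteine from cystathionine, fell at day 2 (-0.90, limma, adjusted p = 0.0329) and at day 21 (-0.70, adjusted p = 0.0295). Aldh1l2, a mitochondrial folate enzyme, fell at day 7 (-0.76, adjusted p = 0.0437) and at day 21 (-0.84, adjusted p = 0.0196). The mitochondrial aminoacyl-tRNA synthetases, which charge a separate set of tRNAs, were above 0 for 14, 15 and 15 of 17, with medians of 0.12, 0.14 and 0.12 with 0 called by limma and 3, 4 and 2 at an unadjusted p under 0.05. After median ratio scaling 9, 15 and 13 of 17 were above 0. The 14 other cytosolic synthetases and scaffold proteins had medians of 0.04 (-0.03 after median ratio scaling), -0.02 and -0.08, and 22 chaperones of the endoplasmic reticulum and targets of XBP1 or ATF6 had medians of 0.24, 0.04 and -0.02. These lists were drawn up with earlier results of the same tables known, and the differences between lists were not tested. Members with and without the promoter core had these medians with DMSO: -0.29 for the 13 with it and -0.29 for the 17 without at day 2, -0.30 and -0.36 at day 7, and -0.30 and -0.39 at day 21.

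**Figure D3:**
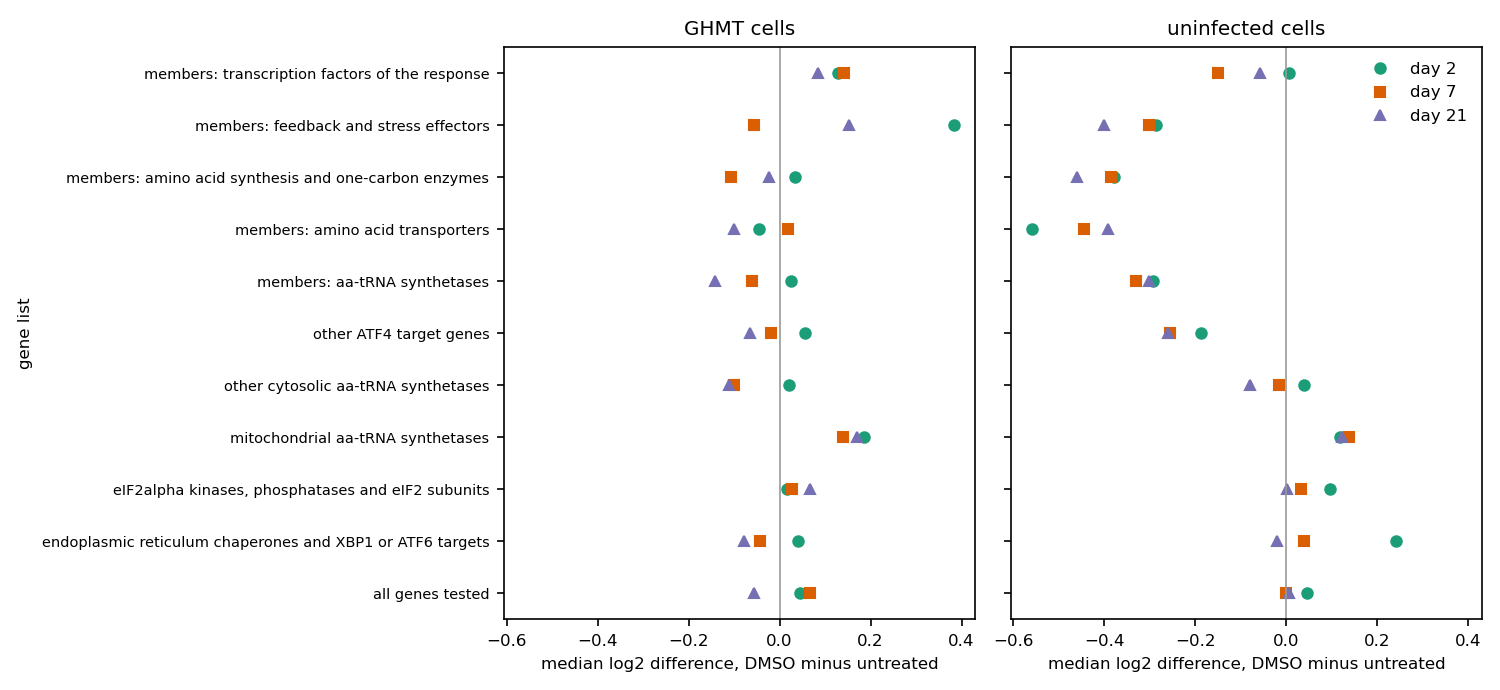
Median log2 difference of DMSO against untreated cells for each gene list (rows) at days 2, 7 and 21, in GHMT and uninfected cells. In uninfected cells the member enzymes, transporters and synthetases lie between -0.56 and -0.29 and mitochondrial synthetases between 0.12 and 0.14.

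In GHMT cells treated with DMSO, the members were split between levels above and below the untreated one, and Got1 was the only one to pass the test. Of 33 members tested, 0 were called at day 2 and 0 at day 7 (limma), where 0.00485% and 0.708% of all genes were called, and 0 and 2 had an unadjusted p under 0.05, against 3.42% and 15.6% of all genes. At day 21 1 of 33 was called, higher with DMSO, where 4.59% of all genes were called and 1.62% were called higher. These shares rest on single libraries, since the 947 genes called became 272 without DMSO replicate 3, 3138 without DMSO replicate 1, and 339 to 491 without each of the others. The log2 difference was below 0 for 11, 18 and 20 of 33 members at days 2, 7 and 21, against 40.1%, 41.2% and 55.2% of all genes. The median of the members was 0.03, -0.06 and -0.03, against 0.04, 0.07 and -0.06 over all genes. The sign of the day 2 median turned after median ratio scaling (-0.03) and that of day 21 after protein-coding rescaling (0.05). Single libraries turned all 3 signs. The day 2 median was -0.09 without DMSO replicate 1 and -0.07 without untreated replicate 2, the day 7 median 0.07 without untreated replicate 1, and the day 21 median 0.04 without DMSO replicate 1.

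Got1, the cytosolic aspartate aminotransferase of the malate-aspartate shuttle, had 45.6, 47.3 and 50.2 TPM with DMSO at day 21, against 33.9, 30.6 and 27.0 TPM without. All DMSO libraries were higher, and Got1 rose by 0.63 ± 0.17 on the log2 scale (limma, adjusted p = 0.0485), or 1.56 times as a ratio of means. At day 7 it had 29.6, 34.8 and 33.7 TPM with DMSO and 25.8, 18.3 and 24.5 TPM without, also apart, with a difference of 0.51 ± 0.17 (adjusted p = 0.175). At day 2 it had 23.4, 20.0 and 18.3 TPM with DMSO and 26.8, 18.3 and 16.5 TPM without. These overlapped, with a difference of 0.02. The call at day 21 was lost without 5 of the 6 libraries in turn (adjusted p up to 0.158) and also without the 3 libraries set apart, and median ratio scaling ended it too. Beside Got1, the summed cardiomyocyte markers were 3930 to 5955 TPM with DMSO and 1382 to 2596 TPM without at day 7, with 13 of 13 above 0, and 5540 to 8615 TPM and 2900 to 3457 TPM at day 21, with 12 of 13 above 0. No cardiomyocyte marker was at 0 in all libraries of a GHMT group, and the part of these genes in the Got1 result was not tested.

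The synthetases were below 0 for 3, 6 and 7 of 9 members at days 2, 7 and 21 in GHMT cells, with medians of 0.02, -0.06 and -0.14, and for 7 of 9 at day 2 after median ratio scaling (-0.05). Gars had the most negative difference of its role at each day, and its levels were 92.3, 95.9 and 82.1 TPM with DMSO at day 21 and 149, 131 and 135 TPM without. These were apart, but the difference of -0.61 ± 0.21 had an adjusted p of 0.0964 (limma). At day 7 Gars had 125, 92.9 and 99.9 TPM with DMSO and 188, 123 and 123 TPM without, and at day 2 155, 98.6 and 94.9 TPM with DMSO and 168, 119 and 125 TPM without. Within every pair of the same replicate number the DMSO library was lower at both of these days, although the groups overlapped. At day 21 the groups were also apart, lower with DMSO, for Eprs, Nars, Tars, Asns, Pycr1 and Slc3a2, which with Gars made 7 of 33 members against 13.2% of all genes. Eprs had 84.9, 81.3 and 81.7 TPM with DMSO and 106, 94.4 and 119 TPM without (-0.36, adjusted p = 0.328). Pycr1 had 5.58, 6.54 and 3.90 TPM with DMSO and 10.2, 9.32 and 9.002 TPM without (-0.75, adjusted p = 0.164). At day 7 Slc7a3 was the member with all DMSO libraries lower, against 6.9% of all genes (1.66, 1.47 and 1.29 TPM with DMSO, 2.23, 2.09 and 1.84 TPM without).

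Same-numbered GHMT libraries deviated together from their group means at days 2 and 7, so each such pair was also read by itself. The labels do not say that the numbers mark pairs. At day 2 the DMSO library was higher in all 3 pairs for Atf3, Ddit3, Trib3 and Chac1, 4 of 33 members against 24.7% of all genes, and lower in all 3 for Nupr1, Pycr1, Slc7a3 and Gars, 4 of 33 against 12.8%. At day 7 it was higher in all 3 pairs for 8 members (Atf3, Atf5, Ddit3, Sesn2, Psat1, Got1, Aars and Iars), against 29.6% of all genes, and lower in all 3 for 7 (Trib3, Asns, Phgdh, Psph, Pycr1, Slc7a3 and Gars), against 15.9%. Atf3 had 49.6, 59.5 and 44.5 TPM with DMSO at day 2 and 45.1, 30.4 and 26.6 TPM without, and at day 7 35.3, 18.7 and 21.6 TPM with DMSO and 19.5, 7.38 and 8.02 TPM without. Replicate 1 was the highest of both groups at day 7, where the groups overlapped, and the difference of 1.13 ± 0.40 had an adjusted p of 0.191 (limma). With the replicate number as a block, limma called 0 members at day 2 and 0 at day 7.

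Replicate 1 of GHMT cells held the highest level of most members at days 2 and 7. At day 2, replicate 1 held the highest value of its group for 27 of 33 members with DMSO (81.8%) and for 28 of 33 without (84.8%), against 20.2% and 19.7% of all genes. Its members lay at a median of 0.51 with DMSO and 0.60 without above the mean of the other replicates on the log2 scale. At day 7 it held the highest value for 26 members with DMSO and 29 without, against 42.1% and 37.7% of all genes. At day 21 it did so for 6 with DMSO (18.2%) and 16 without (48.5%), against 35.1% and 33.2% of all genes. Asns shows the pattern, with 95.5, 47.8 and 42.5 TPM with DMSO at day 2 and 98.0, 35.9 and 42.1 TPM without. Atf4 had 254, 191 and 190 TPM with DMSO and 254, 165 and 188 TPM without on that day, which was also highest in replicate 1, and Ddit3 had 323, 233 and 184 TPM and 305, 124 and 110 TPM. The summed macrophage markers of replicates 1, 2 and 3 were 227, 458 and 72.7 TPM with DMSO and 210, 466 and 72.9 TPM without at day 2, so that replicate 2 was the highest of these, and cell cycle genes summed to 681, 896 and 1128 TPM with DMSO and 615, 746 and 853 TPM without. Replicate 1 was the lowest for cell cycle genes in both groups. The part of either list in the member pattern was not tested. With replicates 2 and 3 alone, a choice made after seeing this pattern, 2 members were called with DMSO at day 21, Got1 and Gars.

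**Figure D4:**
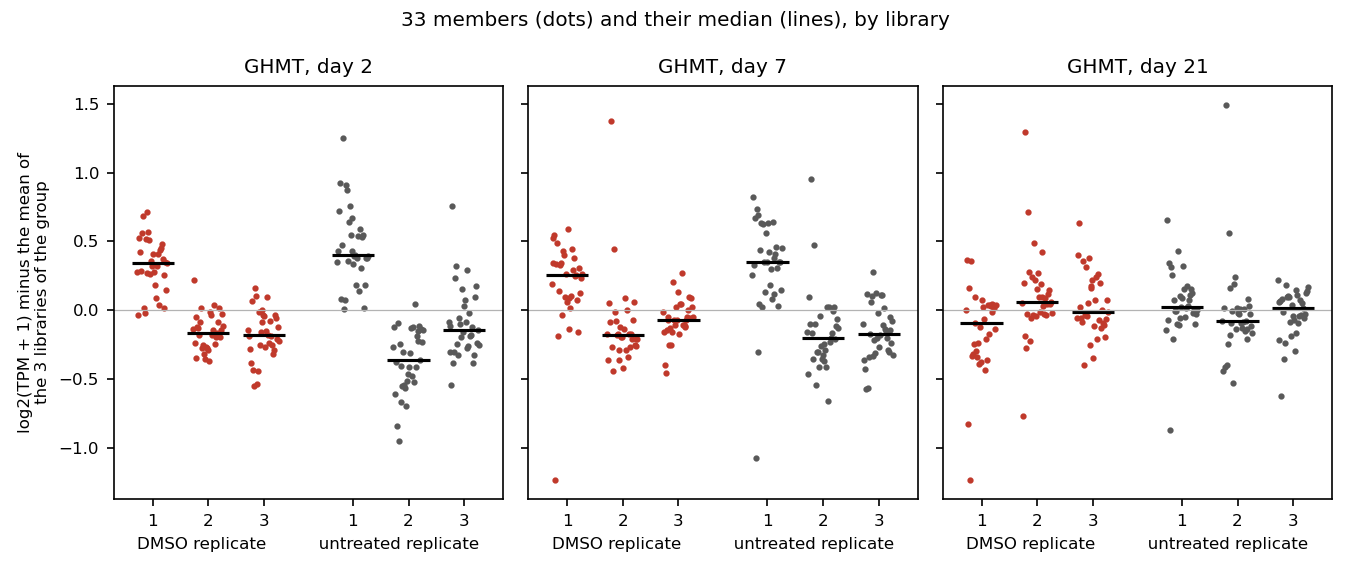
Log2(TPM + 1) of each of 33 members minus the mean of the 3 libraries of its group (dots) and the median over members (lines), by library, in GHMT cells at days 2, 7 and 21. Replicate 1 stands above the others at days 2 and 7, and not at day 21 with DMSO. Taken over the mean of the other replicates, which is not the scale drawn, its medians at days 2 and 7 were 0.51 and 0.39 with DMSO and 0.60 and 0.52 without.

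Whether the DMSO difference itself differed between GHMT and uninfected cells was tested in 1 fit over 36 libraries and 22264 genes. Of 34 members, 0 were called at each of days 2, 7 and 21 (limma), where 0.00898%, 0.117% and 0.588% of all genes were called, and at an unadjusted p under 0.05 the member counts were 4, 3 and 5, against 1.37%, 8.19% and 13.2% of all genes. The GHMT difference was the lower one for 2, 3 and 5 of 34 members, against 49.4%, 41.7% and 54.3% of all genes, with medians of 0.39, 0.27 and 0.27, against 0.00, 0.08 and -0.05 over all genes. These medians stayed above 0 without any 1 library but moved with single ones, at the most to 0.19 and 0.59 at day 2 without untreated GHMT replicates 2 and 1, to 0.15 and 0.50 at day 7 without GHMT replicate 1 with and without DMSO, and to 0.18 and 0.43 at day 21 without uninfected DMSO replicates 3 and 1. Among the members, Got1 had the smallest p at day 7. DMSO libraries had 29.6, 34.8 and 33.7 TPM and untreated ones 25.8, 18.3 and 24.5 TPM in GHMT cells, against 13.2, 14.2 and 14.0 TPM and 14.8, 18.3 and 18.7 TPM in uninfected cells. The libraries were apart in opposite directions, and the difference of 0.81 ± 0.21 had an adjusted p of 0.199. Fgf21 at day 21 differed by 1.03 ± 0.30 (adjusted p = 0.145). It was kept in this fit only through its uninfected libraries, since 0 GHMT libraries reached 1 TPM. Its GHMT averages at day 21 were 0.292 TPM with DMSO and 0.245 TPM without. That value is therefore nearly the uninfected fall alone, and the counts of 34 members include Fgf21. The 0 calls do not show that the differences were alike.

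The levels of both kinds of cell stand in separate tables and were not tested against each other. Side by side, several members had levels in untreated GHMT cells unlike those in untreated uninfected cells. At day 2 without DMSO, Trib3 averaged 5.63 ± 5.36 TPM in GHMT cells and 35.7 ± 5.61 TPM in uninfected cells (SD, n = 3 each), Pycr1 4.92 ± 1.49 TPM and 24.5 ± 5.33 TPM, and Atf3 34.02 ± 9.73 TPM and 1.197 ± 1.02 TPM. Fgf21 had at most 0.340 TPM in GHMT cells, against 4.33 to 4.598 TPM in uninfected cells. The order of the levels depended on the group in GHMT cells. At day 2 Nupr1 averaged 130 TPM with DMSO and 151 TPM without, and lay below Atf4 (212 and 202 TPM) in every library. Ddit3 averaged 247 and 179 TPM and was above Nupr1 in every library with DMSO. Without DMSO this held in replicate 1 alone, with 305, 124 and 110 TPM for Ddit3 and 204, 137 and 112 TPM for Nupr1. At day 21 Nupr1 averaged 420 and 407 TPM, above Atf4 (165 and 186 TPM) with no overlap of the libraries. Fgf21 and Slc7a3 were the lowest in all GHMT groups. In all 6 uninfected groups Nupr1 (239 to 262 TPM on average) came first and Atf4 (203 to 224 TPM) next, but their libraries overlapped in each group. Within libraries, Nupr1 was above Atf4 throughout only with DMSO at day 2 (210.5, 249.9 and 286.4 TPM against 192.7, 213.6 and 201.9 TPM). In each of the other groups Atf4 was the higher in replicate 1. Slc7a3, Fgf21 and Atf3 were among the lowest there.

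More members were called for time in culture than for DMSO, and so were more of all genes. These comparisons share libraries with those of DMSO and are not independent of them. In uninfected cells without DMSO, 11 of 34 members were lower and 0 higher at day 21 than at day 2 (limma), where 5.84% of all genes were called lower and 5.16% higher. The median of the members was -0.35, against -0.06 over all genes. The members that fell were 5 synthetases (Aars, Gars, Sars, Iars and Eprs), 4 enzymes (Asns, Phgdh, Aldh18a1 and Pycr1), the transporter Slc7a3 and Trib3. In uninfected cells with DMSO, 12 were lower and 2 higher, where 10.2% of all genes were called lower and 4.86% higher. The median was -0.39, against -0.10 over all genes, a shift of all genes that median ratio scaling brought to 0.00. Those lower were Ddit3, Trib3, Fgf21, Phgdh, Aldh18a1, Pycr1, Slc7a3, Slc7a5, Aars, Gars, Sars and Eprs, and those higher were Atf3 and Got1. Leaving out single libraries moved these counts and those of all genes, mostly down. The 11 became 7, 5 and 4 without untreated day 2 replicates 1, 2 and 3. There the 2197 genes called became 1488, 1367 and 1416. Without untreated day 21 replicates 2 and 3 the 11 became 7 and 5, and the genes called 1609 and 1302. Without untreated day 21 replicate 1 the 11 became 9, while the genes called rose to 2240. With DMSO the 14 became 8 and 9 without DMSO day 2 replicates 2 and 3. The 3011 genes called became 1842 and 2159. Without DMSO day 2 replicate 1 the 14 stayed at 14, with 2555 genes called. Without DMSO day 21 replicate 1 the 14 rose to 19 and the genes called to 3079. Without the 3 libraries set apart, Iars, Phgdh and Trib3 lost their calls in untreated cells and Fgf21 gained one.

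Eprs had the smallest p among the synthetases in both of these comparisons. With DMSO it averaged 122, 105 and 70.6 TPM at days 2, 7 and 21, and day 21 lay 0.77 ± 0.10 below day 2 (limma, adjusted p = 0.000152). Without DMSO it averaged 151, 135 and 96.4 TPM, a fall of 0.64 ± 0.10 (adjusted p = 0.000846). Both falls held without any 1 library. Slc7a3 had 0.870, 0.708 and 1.36 TPM at day 21 without DMSO, against 3.41, 2.88 and 3.09 TPM at day 2, and fell by 1.07 ± 0.14 (adjusted p = 0.000313). Trib3 with DMSO had 9.12, 10.3 and 8.50 TPM at day 21, against 20.8, 30.4 and 37.9 TPM at day 2, which do not overlap, and fell by 1.54 ± 0.27 (adjusted p = 0.00186). Pycr1 with DMSO averaged 17.5, 11.3 and 6.26 TPM at days 2, 7 and 21 and had a day 21 against day 2 difference of -1.38 ± 0.24 (adjusted p = 0.00175). Atf4 mRNA was not called, with averages of 203, 205 and 211 TPM with DMSO and 222, 224 and 223 TPM without at days 2, 7 and 21 (adjusted p = 0.882 and 0.99 for day 21 against day 2).

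With all libraries kept, the shares of members called for time in GHMT cells lay below those of all genes. For the members called lower without DMSO, the share was close to that of all genes. Whether the change with time differed between the kinds of cell was not tested. Without DMSO, 3 of 33 members were higher (Nupr1, Got1 and Slc7a1) and 2 lower (Atf3 and Psat1) at day 21 than at day 2, where 17.9% of all genes were called higher and 6.7% lower. With DMSO, 5 were higher (Atf5, Nupr1, Gpt2, Got1 and Slc7a1) and 3 lower (Atf3, Psat1 and Tars), where 21.4% of all genes were called higher and 16.2% lower. Without DMSO the median of the members was 0.19, beside 0.20 over all genes, and median ratio scaling brought these to -0.02 and 0.03. The member median was 0.44 without day 2 replicate 1, -0.01 without day 2 replicate 2 and 0.10 without day 2 replicate 3. Nupr1 averaged 130, 359 and 420 TPM with DMSO at days 2, 7 and 21 and 151, 336 and 407 TPM without. It rose by 1.72 ± 0.34 with DMSO (limma, adjusted p = 0.00168) and by 1.44 ± 0.34 without (adjusted p = 0.00785). Got1 with DMSO averaged 20.5, 32.7 and 47.7 TPM and rose by 1.18 ± 0.17 (adjusted p = 0.000175). Without DMSO it averaged 20.5, 22.9 and 30.5 TPM and rose by 0.57 ± 0.17 (adjusted p = 0.0243). Psat1, the transaminase of serine synthesis, fell by 0.96 ± 0.20 with DMSO (76.8, 54.4 and 39.0 TPM on average, adjusted p = 0.00224) and by 0.98 ± 0.20 without (75.1, 52.0 and 36.9 TPM, adjusted p = 0.00309). Atf3 fell by 1.76 ± 0.40 with DMSO and by 1.67 ± 0.40 without, with averages of 51.2 TPM with DMSO and 34.02 TPM without at day 2. Psat1, Nupr1 and Atf3 held without any 1 library in both groups. The count of 5 without DMSO became 8 without day 2 replicate 1, where the 5073 genes called became 2995. The member share no longer lay below that of all genes there. The 5 became 3 without day 2 replicate 2 (3977 genes) and without day 21 replicate 1 or 2 (3372 and 3743 genes). With DMSO the 8 became 5 without day 21 replicate 3, where the 7755 genes called became 5703. Without the 3 libraries set apart, Atf5, Slc7a1 and Tars lost their calls with DMSO and Pycr1 gained one without.

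**Figure D5:**
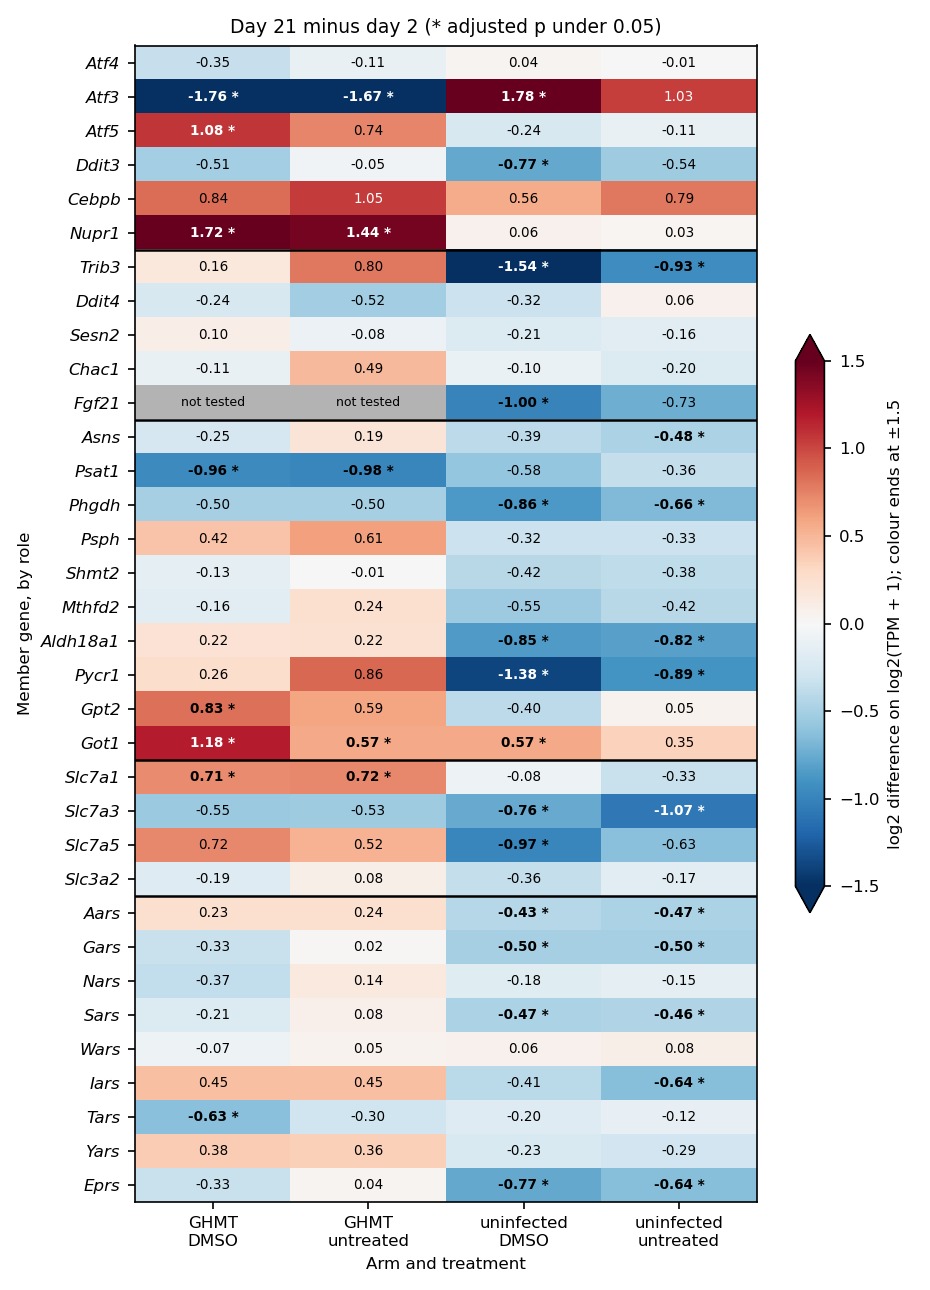
Log2 difference of day 21 against day 2 on the log2(TPM + 1) scale for each member (rows, by role) in GHMT and uninfected cells with and without DMSO (columns), with called members marked. In uninfected cells 11 members without DMSO and 12 with DMSO are called lower, while in GHMT cells Nupr1, Got1 and Slc7a1 are called higher and Atf3 and Psat1 lower in both groups.

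The DMSO difference of day 21 minus that of day 2 was tested as well. It had 0 of 34 members called in uninfected cells, where 0.035% of all genes were called, and 0 of 33 in GHMT cells, where 0.0679% were (limma), with 0 and 1 members at an unadjusted p under 0.05, against 3.99% and 6.68% of all genes. The 1 was Got1 in GHMT cells, at 0.61 ± 0.24 with an adjusted p of 0.723.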

How the data were processed

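RNA-seq of 36 libraries was used. The authors deposited TPM per Ensembl gene in 1 table for uninfected and 1 for GHMT cells. Per the submitters' processing notes, Trimmomatic, FastQC and kallisto were used, and the genome build, annotation and strand setting were not given in the sources used here, and reads of overlapping genes on opposite strands cannot be told apart. RNA was total RNA, and the kit was TruSeq RNA, per the labels' protocols. The 97 entries of each table that name no gene (0.248 to 4.81% of TPM) were left out. Entries of 1 symbol were summed, which gave 50509 symbols from 50601 entries, and gene types came from GENCODE M21 for 50377 IDs. No counts were used, so depth is unknown, and only the spread between libraries gives the precision.

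limma 3.58.1 (R 4.3.3) was fitted with a trend to log2(TPM + 1), with 1 mean per group over the 18 libraries of a table (12 residual degrees of freedom), or over all 36 for differences between both kinds of cell (24). Genes at 1 TPM or more in 3 libraries were kept, and p-values were adjusted by Benjamini-Hochberg over all of them in each of 15 comparisons. A fold change on this scale understates the change of low genes. The fit was tested on simulated data. Tables were handled with pandas 2.3.3 and numpy 2.4.6 (Python 3.11.15) and figures drawn with matplotlib 3.10.9. The tables were deposited separately, so levels were not tested between them. The promoter window of 1 member is not reported here. The members and all gene lists were chosen with earlier results of these data known. All 34 members are named, and of each other list at most 2 genes called higher and 2 called lower with the smallest adjusted p in a comparison with DMSO.

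Same-numbered GHMT libraries with and without DMSO deviated together from their group means at day 2 (correlations 0.34, 0.19 and 0.26) and day 7 (0.25, 0.18 and 0.22). This rests on the data, since the labels say nothing of what a number marks. The alternatives tried were other pseudocounts, no filter, other scalings, a replicate block, a fit to the groups compared alone, no trend, and leaving out libraries.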

Additional observations from a re-analysis of the deposited data

Results flagged for a closer look

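Got1 and Sesn2 were picked out because at day 7 their DMSO and untreated libraries stood apart in opposite directions in both kinds of cell, higher with DMSO in GHMT cells and lower with DMSO in uninfected cells. For Got1, the GHMT difference minus the uninfected one was 0.8058 on the log2 scale, with an adjusted p of 0.199 in limma. For Sesn2, which had 52.5, 47.2 and 43.4 TPM with DMSO and 42.8, 38.6 and 43.3 TPM without in GHMT cells, against 31.4, 43.1 and 34.4 TPM with DMSO and 43.8, 46.8 and 43.1 TPM without in uninfected cells, it was 0.4923, with an adjusted p of 0.622. Neither passed the test of the difference itself. Sesn2 groups barely stood apart, with 43.35 TPM with DMSO against 43.26 TPM without in GHMT cells. In uninfected cells the nearest values were 43.05 TPM with DMSO and 43.09 TPM without. How many of all genes meet this rule was not counted, so the picks give no measure of how unusual these members are. With replicates 2 and 3 of the GHMT cells alone, Got1 did (adjusted p = 0.0394, against 0.199 with all replicates), a choice made after seeing the data.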

How the results depend on the processing

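Of 42 called member results, the 681 values under alternatives all kept their sign, and 528 were still past the threshold. Counts of members called moved more, and counts over all genes moved as well. In uninfected cells with DMSO, protein-coding rescaling took 57, 337 and 472 genes called to 194, 945 and 1024 at days 2, 7 and 21. In GHMT cells at day 21, 947 genes called became 1150 with median ratio scaling and 1828 with protein-coding rescaling. With DMSO at day 2 in uninfected cells, 0 became 1 with a pseudocount of 5, 1 with median ratio scaling and 4 with protein-coding rescaling. At day 7, 1 became 0 with no filter, 4 with either rescaling, 3 with a replicate block, 5 with the groups alone and 3 without the 3 libraries set apart. At day 21, 2 became 1 with a pseudocount of 5 or no filter, 6 with median ratio scaling, 7 with protein-coding rescaling, 5 with a replicate block and 0 with the groups alone. In GHMT cells at day 21, 1 became 0 with a pseudocount of 0.1, no filter, median ratio scaling, the groups alone, no trend, or without the libraries set apart, and 2 with a replicate block or with replicates 2 and 3 alone. For day 21 against day 2, 11 in untreated uninfected cells became 6 with no filter and 3 with the groups alone, 14 with DMSO became 5 with the groups alone, 5 in untreated GHMT cells became 8 with a replicate block and 11 with replicates 2 and 3 alone, and 8 with DMSO became 5 with the groups alone or without the libraries set apart. The difference between both kinds of cell had 1 call at day 7 and 4 at day 21 with replicates 2 and 3 alone, Fgf21 among the 4. Leaving out 1 library gave 0 to 0 at day 7 and 0 to 6 at day 21 in uninfected cells with DMSO, 0 to 1 in GHMT cells at day 21, 4 to 9, 8 to 19, 3 to 8 and 5 to 8 for the time comparisons in the same order, and 0 to 1 for the difference at day 21. The 19 came without uninfected DMSO day 21 replicate 1. The causes were not tested. The share of all calls that were higher moved by over 10 points: with median ratio scaling from 63.2 to 31.7% at day 2 in uninfected cells, and for time to 52.8% in uninfected DMSO cells (32.2% as deposited), 48.4% in untreated GHMT cells (72.8%) and 46% in GHMT DMSO cells (57%); with protein-coding rescaling to 60.7% at day 7 and 55.5% at day 21 in uninfected cells (38.3% and 30.7%), 59.4% in GHMT cells at day 21 (35.2%) and 47.6% for time in uninfected DMSO cells. By the same check, same-numbered libraries also correlated highest in uninfected cells at day 2 (0.09, 0.09 and 0.20) and day 7 (0.12, 0.08 and 0.15). In GHMT cells at day 21 they did too (0.09, 0.19 and 0.07). The labels do not say whether the numbers pair these libraries. Same-numbered values were not all above the others in uninfected cells at day 21 (0.25, 0.02 and 0.24) or for time. There the blocked counts say nothing of a weaker or stronger effect. Unknown depth limits what can be read from Fgf21, Slc7a3 and Atf3 in uninfected cells, which lay near 1 TPM.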
